A study of Mus musculus with 16 samples.

Results

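The 46 mitosis genes described here encode the machinery that carries a cell through division: the kinase switch that starts mitosis, the spindle and its motors, the kinetochores, the checkpoint that watches them, and the proteins of cytokinesis and mitotic exit. They were chosen by name from knowledge of the cell cycle, with earlier results of these data known. Each gene is read from the probe set with a single gene symbol that was brightest over all arrays, which gave 45 of the 46 among 19938 genes measured. Ccnb1, the gene of cyclin B1, had no such entry and was not analysed here. Of the 45, 29 lay above the intensity of the median gene and 16 below it.

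Cells switch on most of these genes late in the cell cycle, in G2, and switch them off again after division, so that their transcripts are abundant in a population that holds dividing cells. Cyclin-dependent kinase 1 bound to cyclin B drives entry into mitosis. PLK1 and the Aurora kinases then build the spindle, and the spindle checkpoint holds back the anaphase-promoting complex, a ubiquitin ligase, until every chromosome is attached. Dendritic cells of the cDC1 type arise from dividing precursors, and some division continues after the precursors have reached lymphoid tissue.

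RNA was taken from cDC1 sorted from inguinal lymph nodes of C57BL/6 mice, 6 days after the mice had received tumours of a kind that is later rejected, in the flank. The mice were heterozygous (Het) or knockout (KO) for Wdfy4, the gene of a large BEACH-domain protein without which cDC1 fail to cross-present antigen from dead cells. Nodes came from the flank that drains the tumour or from the other flank. This gave 4 groups of 4 arrays, numbered 1 to 4 in each: Het draining, KO draining, Het non-draining and KO non-draining. All 4 groups came from mice with tumours. The heterozygous mice, with 1 intact copy, were the controls, and there was no wild-type group and no tumour-free group. The labels do not give the part of Wdfy4 that was removed, the age of the mice, or whether each array stands for its own mouse. The p-values therefore reflect only how these samples scatter, and some of that scatter may be technical. With arrays there is no depth to report, and precision is set by how many there are.

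Wdfy4 read 2463 to 3450 in Het draining, 1786 to 2785 in KO draining, 2278 to 3332 in Het non-draining and 1923 to 3165 in KO non-draining cells, so its ranges overlapped between genotypes. Its KO minus Het difference was -0.40 ± 0.18 in draining nodes and -0.25 ± 0.18 in non-draining nodes (log2, ± SE). Where its probes lie against the removed part is not known, so this reading does not check the labels. All 10 cDC1 markers measured, among them Xcr1 and Clec9a, were above the array median on all 16 arrays. Of the T cell markers, 8 of 11 were also above it on all 16 arrays. So were 6 of 7 plasmacytoid and 5 of 6 migratory dendritic cell markers, and 5 of 9 of macrophages and monocytes. For cDC2 and for stromal cells it was 4 of 7 each. For B cells it was 3 of 11, for germinal centre B cells 2 of 5 and for plasma cells 2 of 6. Of the NK and cytotoxic, neutrophil and erythroid markers, 0 were. Array KO draining 2 had the lowest median correlation with the other arrays, at 0.976, against 0.984 to 0.991 for the rest.

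Mitosis genes are known to share promoter elements, so the promoters of the members were read before their levels. The sequences are those of RefSeq on GRCm38.p6, from 250 bases before to 50 bases after the start site, and 38 of the 45 measured members had one. In all, 3 motifs were searched on both strands, each match being counted even where it overlapped another. The first was the cell cycle genes homology region, or CHR, TTTGAA, which on the other strand reads as TTCAAA, to which repressor and activator complexes of the cell cycle bind. The second was a variant of it, TTCGAA, which reads the same on both strands, and the third was the CCAAT box (ATTGG on the other strand), the site of the factor NF-Y. The promoters printed are those of the 5 members with the smallest unadjusted p in any comparison of 2 groups, among the members given with array values that hold a CHR or a CCAAT box. Tacc3, also described further on, holds none of the 3 motifs in its window and is not shown. Capitals mark the matches. The Plk1 window is chr7:122159185-122159484 on the plus strand, the Kpna2 window chr11:106999476-106999775 on the minus strand, the Top2a window chr11:99024140-99024439 on the minus strand, the Bub1 window chr2:127831810-127832109 on the minus strand, and the Cenpn window chr8:116921490-116921789 on the plus strand.
Plk1: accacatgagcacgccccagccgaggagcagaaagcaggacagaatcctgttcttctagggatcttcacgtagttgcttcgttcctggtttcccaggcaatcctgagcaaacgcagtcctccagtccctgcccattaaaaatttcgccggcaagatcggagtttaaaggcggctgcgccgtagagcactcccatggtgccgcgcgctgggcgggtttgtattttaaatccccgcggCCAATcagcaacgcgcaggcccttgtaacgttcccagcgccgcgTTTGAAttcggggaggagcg
Kpna2: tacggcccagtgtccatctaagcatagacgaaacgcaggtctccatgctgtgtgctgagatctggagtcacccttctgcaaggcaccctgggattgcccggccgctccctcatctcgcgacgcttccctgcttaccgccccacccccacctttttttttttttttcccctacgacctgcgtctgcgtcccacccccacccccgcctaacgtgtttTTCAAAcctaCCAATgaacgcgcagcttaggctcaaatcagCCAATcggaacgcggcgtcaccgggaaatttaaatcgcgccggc
Top2a: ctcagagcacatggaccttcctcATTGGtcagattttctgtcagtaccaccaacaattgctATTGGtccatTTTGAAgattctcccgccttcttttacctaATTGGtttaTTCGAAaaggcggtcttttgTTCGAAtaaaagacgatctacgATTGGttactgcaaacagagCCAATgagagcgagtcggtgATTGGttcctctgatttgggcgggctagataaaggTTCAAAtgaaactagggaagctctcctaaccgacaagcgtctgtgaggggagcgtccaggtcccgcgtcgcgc
Bub1: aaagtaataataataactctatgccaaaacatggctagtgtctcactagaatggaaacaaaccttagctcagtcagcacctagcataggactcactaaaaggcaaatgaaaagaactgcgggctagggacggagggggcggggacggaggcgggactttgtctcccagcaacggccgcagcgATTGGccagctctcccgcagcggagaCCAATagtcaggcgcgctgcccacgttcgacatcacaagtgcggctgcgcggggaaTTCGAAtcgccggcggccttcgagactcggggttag
Cenpn: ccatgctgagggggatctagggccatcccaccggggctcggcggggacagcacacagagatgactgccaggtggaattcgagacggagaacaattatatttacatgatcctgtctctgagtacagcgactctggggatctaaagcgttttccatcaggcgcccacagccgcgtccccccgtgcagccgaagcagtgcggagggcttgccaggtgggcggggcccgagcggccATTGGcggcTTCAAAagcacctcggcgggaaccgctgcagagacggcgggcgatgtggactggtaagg
Each sequence runs 5′ to 3′ on the strand of its gene, and the start site lies 250 bases in. Positions count forward from the first base after these 250 and, with a minus sign, backward from the base before it. No base has position 0.

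A CHR was found in 29 of the 38 promoters (76.3%), against 20.2% of 27025 genes with a promoter of the same length. At least 1 CCAAT box was in 29 of 38 (76.3%), against 41.1% of all genes, and 2 or more were in 21 (55.3%), against 13.3%. A CHR together with a CCAAT box was in 25 of 38 (65.8%), against 7.97%. The variant was in 4 (10.53%), against 1.8%. The 27 DNA replication genes described further on, of which 23 had a promoter, held a CHR in 3 and a CCAAT box in 15. Among the shown genes, Plk1 has its CHR at 31 and 1 CCAAT box at -14, and Cenpn has both close to the start, at -9 and -18. Top2a holds 6 CCAAT boxes, 2 CHRs and 2 copies of the variant, whereas Bub1 has only the variant, at 15, behind 2 CCAAT boxes at -68 and -42. Of 40 CHR matches in the members' 40 promoter windows, 30 (75%) began within 50 bases of the start, against 25.3% of the 6737 matches in 32851 windows of all genes. Of 73 CCAAT matches, 43 (58.9%) began 20 to 120 bases before the start, against 44.99% over all genes. Ect2 and Prc1 each have windows that overlap, and a match lying in both was counted in each. In 5 members none of the 3 motifs was found, which says only that these letters are not in the window. These shares describe the sequences and are no test of binding.

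**Figure D1:**
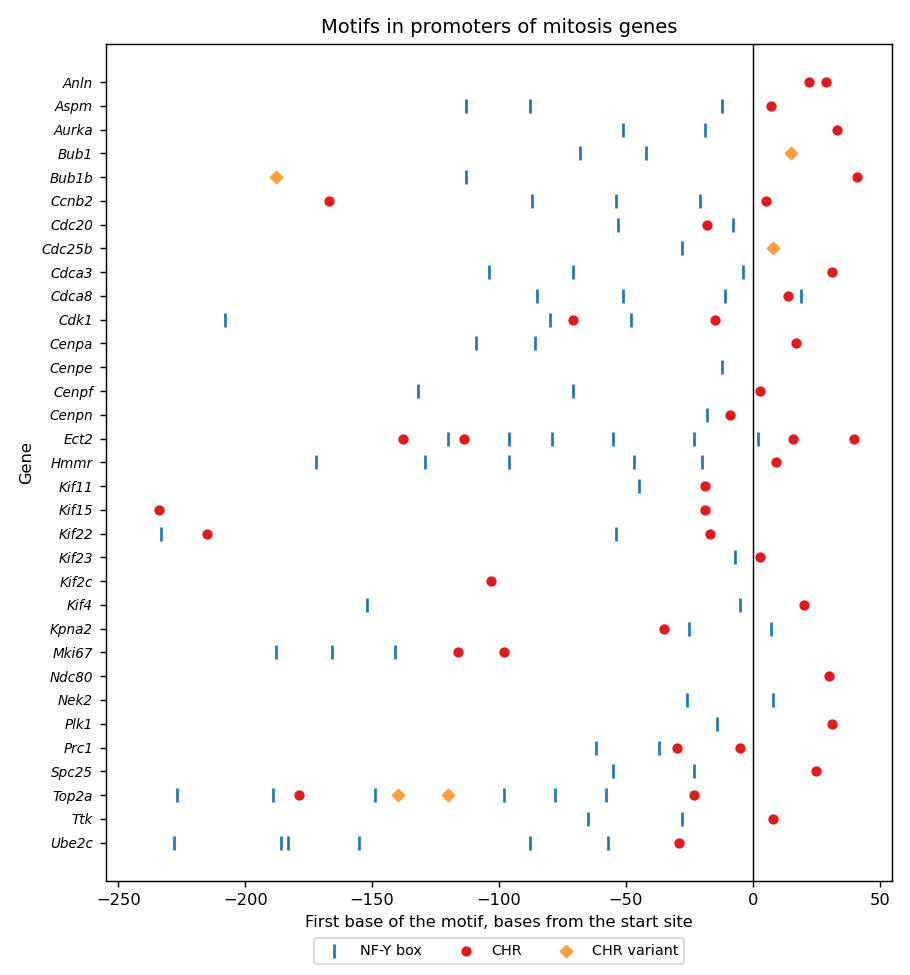
First base of each motif match in the promoters of the 33 mitosis genes with a match, 1 gene per row. The horizontal axis gives bases from the start site, drawn as a line at 0, though no base has that position. For Ect2 and Prc1, whose windows overlap, a match is drawn for each window that holds it. CHR matches (circles) crowd around the start site, with 30 of 40 within 50 bases, and CCAAT boxes (bars, marked NF-Y box) lie mostly before it.

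The level of the members together was read as the mean of their log2(intensity + 1) on each array. On Het draining arrays 1 to 4 it was 6.41, 6.41, 6.17 and 6.01. On KO draining arrays it was 5.83, 6.14, 6.04 and 5.94, on Het non-draining arrays 6.06, 5.86, 5.89 and 5.74, and on KO non-draining arrays 6.06, 6.00, 5.89 and 6.03. The group means were 6.25 ± 0.20, 5.99 ± 0.13, 5.89 ± 0.14 and 6.00 ± 0.08 in that order (SD, n = 4). Het draining arrays 1, 2 and 3 were above all 12 arrays of the other groups, and Het draining 4 lay within their range. The Het draining group had the highest group mean for 41 of the 45 members (27.6% of all genes) and the lowest for 0 members. Het non-draining cells had the lowest mean for 28 members (26.4% of all genes). The single highest array of a member was Het draining 1 for 15 members, Het draining 2 for 15 and Het draining 3 for 3.

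**Figure D2:**
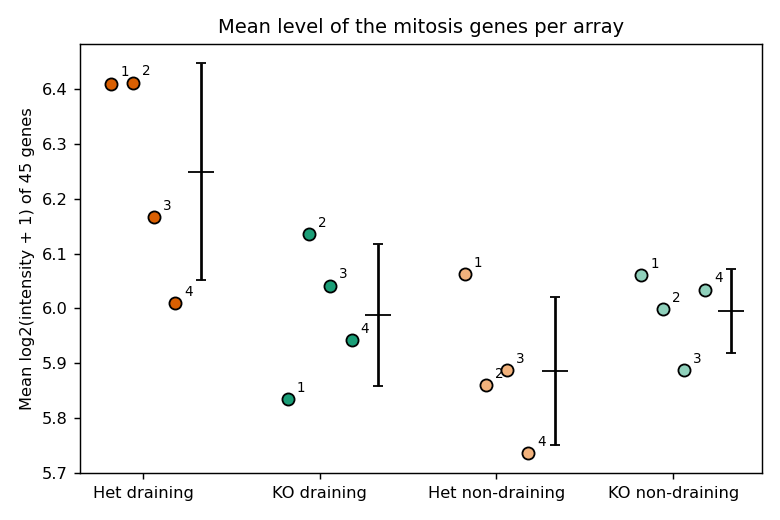
Mean log2(intensity + 1) of the 45 mitosis genes on each of the 16 arrays (points, with the array number) by group, with the group mean and SD (n = 4). Het draining arrays 1 and 2 are highest at 6.41, and the ranges of all 4 groups overlap.

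The arrays numbered 1 and 2 stood apart from those numbered 3 and 4 within Het draining cells: the members' mean was 0.32 higher (log2) in the first pair, with 40 of 45 members higher. The same difference was -0.01 in KO draining, 0.15 in Het non-draining and 0.07 in KO non-draining cells. The labels do not say what the numbers mark. Values within each number pair are therefore given beside each comparison of the draining Het cells.

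**Figure D3:**
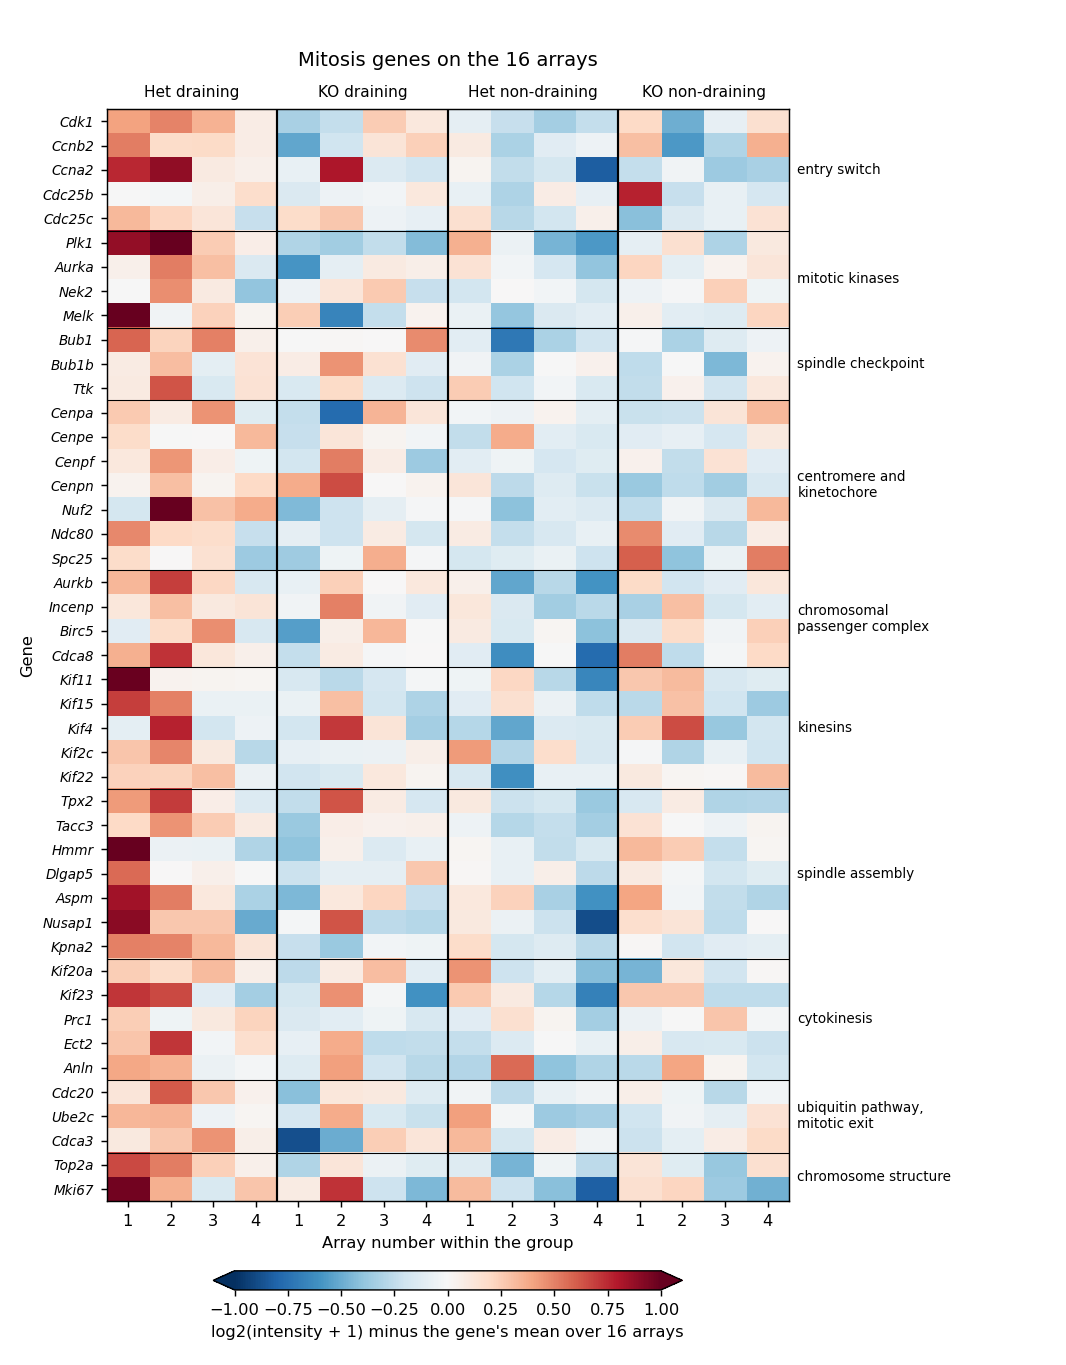
Log2(intensity + 1) of each mitosis gene minus its mean over 16 arrays (colour, red higher and blue lower), by array (columns, grouped) and by gene (rows, grouped by role). Most rows are red in Het draining arrays 1 and 2, where 30 of the 45 members have their highest value.

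In Het cells all 45 members stood higher in the draining than in the non-draining node, with a median difference of 0.33 (log2), against 0.01 over all genes and 52.8% of all genes higher. None of the 45, and 0 of 19938 genes (0%), passed limma at an adjusted p under 0.05. At an unadjusted p under 0.05, 18 members were higher (40%), against 1.93% of all genes, and 0 were lower. In 9 members (20%), against 1.4% of all genes, every Het draining array was above every Het non-draining array. These were Bub1, Tacc3, Top2a, Cdca8, Cdk1, Kif22, Ccna2, Cdc20 and Melk. Arrays 1 and 2 alone gave a median of 0.46, and arrays 3 and 4 alone gave 0.29. Fewer dividing cells in a sample and less of these RNAs per cell cannot be told apart in bulk RNA. T cell markers lay the other way, with 11 of 11 lower in the draining node (median -0.41). Their summed intensity ranged from 1105 to 2214 in Het draining and from 1341 to 2546 in Het non-draining cells. Markers of cDC2 were lower for 6 of 7 (median -0.22), at a summed 381 to 709 against 422 to 746. Markers of macrophages and monocytes were lower for 7 of 9 (median -0.07), at a summed 1073 to 1279 against 1306 to 1610, led by Cd14 (-0.57 ± 0.20) and Lyz2 (-0.53 ± 0.20). Markers of cDC1 were higher for 7 of 10 (median 0.16), at a summed 15479 to 19635 against 13866 to 19351. The part of these markers in the result was not tested.

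In the draining node 43 of 45 members stood lower in KO than in Het cells, with a median of -0.25, where 50.9% of all genes were lower. None of the members and 0 of 19938 genes (0%) passed the adjusted test in limma. At an unadjusted p under 0.05, 11 members were lower (24.4%), against 1.7% of all genes. The 5 members whose groups did not overlap, Kpna2, Plk1, Tacc3, Prc1 and Kif11, made up 11.1%, against 0.747% of all genes. The exceptions by sign were Cenpn (0.13 ± 0.13) and Bub1b (0.03 ± 0.14). Arrays 1 and 2 alone gave a median of -0.43 with 42 members lower, and arrays 3 and 4 alone gave -0.087 with 33 lower. The count of 11 became 5 without KO draining 1 (2.36% of all genes), 7 without Het draining 1 (1.73%), 7 without Het draining 2 (1.67%) and 19 without Het draining 4 (1.88%). This comparison uses the same Het draining arrays as the one between nodes. T cell markers were higher in KO cells for 10 of 11 (median 0.27), at a summed 1327 to 2748 in KO draining cells. B cell markers were higher for 10 of 11 (median 0.20), at 757 to 953 against 581 to 1034. Also higher were 7 of 8 NK and cytotoxic (median 0.14), 7 of 9 macrophage and monocyte (median 0.03) and 5 of 7 cDC2 markers (median 0.10). Plasma cell markers were lower for 5 of 6 (median -0.04). Their part was not tested.

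In the non-draining node the members lay the other way by a smaller amount: 35 of 45 were higher in KO cells, against 51.9% of all genes, with a median of 0.11. In limma 0 of 45 and 0 of 19938 genes (0%) passed. Kif22, Cdca8 and Tacc3 were higher at an unadjusted p under 0.05 (6.67% of the members, against 1.3% of all genes), and Kif22 and Tacc3 did not overlap between groups (4.44%, against 1.2%). Leaving out Het non-draining 2 brought the count of 3 to 0 (1.56% of all genes). Leaving out Het non-draining 4, or either of KO non-draining 1 and 4, brought it to 1 (1.12% to 1.38%), and leaving out KO non-draining 2 to 6 (1.24%). Here T cell markers were lower in KO cells for 11 of 11 (median -0.38), at a summed 858 to 2391, B cell markers higher for 11 of 11 (median 0.33), at 843 to 1161 against 595 to 1056, and cDC1 markers higher for 10 of 10 (median 0.21). Their part was not tested.

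In KO cells the members' levels in the 2 nodes differed little: 18 were higher and 27 lower in the draining node, with a median of -0.01, and 50.7% of all genes were higher. Again 0 of 45 and 0 of 19938 genes (0%) passed in limma. Cenpn and Bub1b were higher at an unadjusted p under 0.05 (4.44%, against 1.14% of all genes), and Cenpn and Bub1 did not overlap (4.44%, against 0.848%). Leaving out array 2 or 3 of KO draining cells, or array 1 or 3 of KO non-draining cells, brought the first count to 1 (0.968% to 1.99% of all genes). Leaving out KO draining 1 brought the count of lower members to 17. Arrays 1 and 2 alone gave a median of -0.13, and arrays 3 and 4 alone one of the other sign, 0.05, with 17 members lower. T cell markers were higher in the draining node for 10 of 11 (median 0.24), at a summed 1327 to 2748 against 858 to 2391. B cell markers were lower for 10 of 11 (median -0.19), at 757 to 953 against 843 to 1161, and cDC1 markers for 9 of 10 (median -0.09), at 15454 to 18524 against 16340 to 21046. Their part was not tested.

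Whether the node difference itself depended on the genotype was tested by the interaction, the genotype difference in the draining node minus that in the non-draining node. It was below 0 for 42 of 45 members, against 52.3% of all genes, with a median of -0.38. None of the members and 0 of 19938 genes (0%) passed the adjusted test in limma. At an unadjusted p under 0.05, 13 members were lower (28.9%), against 1.33% of all genes, and 0 were higher. Leaving out Het non-draining 4 brought that count to 8 (1.09% of all genes), as did leaving out KO non-draining 1 (1.15%). Arrays 1 and 2 alone gave a median of -0.54, and arrays 3 and 4 alone gave -0.26. T cell markers had a positive interaction for 11 of 11 (median 0.69), cDC2 markers for 6 of 7 (median 0.15) and migratory dendritic cell markers for 5 of 6 (median 0.06). Of the lists on the members' side of 0, cDC1 markers were below it for 9 of 10 (median -0.23) and B cell markers for 9 of 11 (median -0.20). Plasmacytoid dendritic cell markers were below 0 for 7 of 7 (median -0.13) and plasma cell markers for 5 of 6 (median -0.09). The part of these markers was not tested.

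Averaged over both nodes, the genotype difference was below 0 for 35 members (49.2% of all genes), with a median of -0.08, and 2 were lower at an unadjusted p under 0.05 (4.44%, against 1.75% of all genes). It did not hold within both number pairs: arrays 1 and 2 alone gave a median of -0.17, with 39 members lower and 6 of them at that p (2.16% of all genes), while arrays 3 and 4 alone gave 0.011, with 19 members lower and 1 at that p (4.72%). B cell markers were higher in KO cells for 11 of 11 (median 0.32) and cDC1 markers for 10 of 10 (median 0.07). Markers of NK and cytotoxic cells were higher for 7 of 8 (median 0.14), and T cell markers lower for 8 of 11 (median -0.08). The part of these markers was not tested. Averaged over both genotypes, the node difference was above 0 for 43 members (52.3% of all genes), with a median of 0.18, and 12 were higher at that p (26.7%, against 1.76%). Arrays 1 and 2 alone gave a median of 0.19, and arrays 3 and 4 alone 0.16. B cell markers were lower in the draining node for 9 of 11 (median -0.09), as were T cell markers for 9 of 11 (median -0.04). Markers of NK and cytotoxic cells were lower for 6 of 8 (median -0.10) and those of cDC2 for 5 of 7 (median -0.13). Markers of cDC1 were higher for 7 of 10 (median 0.07) and those of stromal cells for 6 of 7 (median 0.04). The part of all these markers was not tested. Leaving out Het draining 2 brought the 12 to 7 (1.71% of all genes) and the 2 to 1 (1.9%), and leaving out Het non-draining 1 or KO non-draining 3 also brought the 2 to 1 (1.68%). In both averages 0 of 45 and 0 of 19938 genes (0%) passed in limma.

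**Figure D4:**
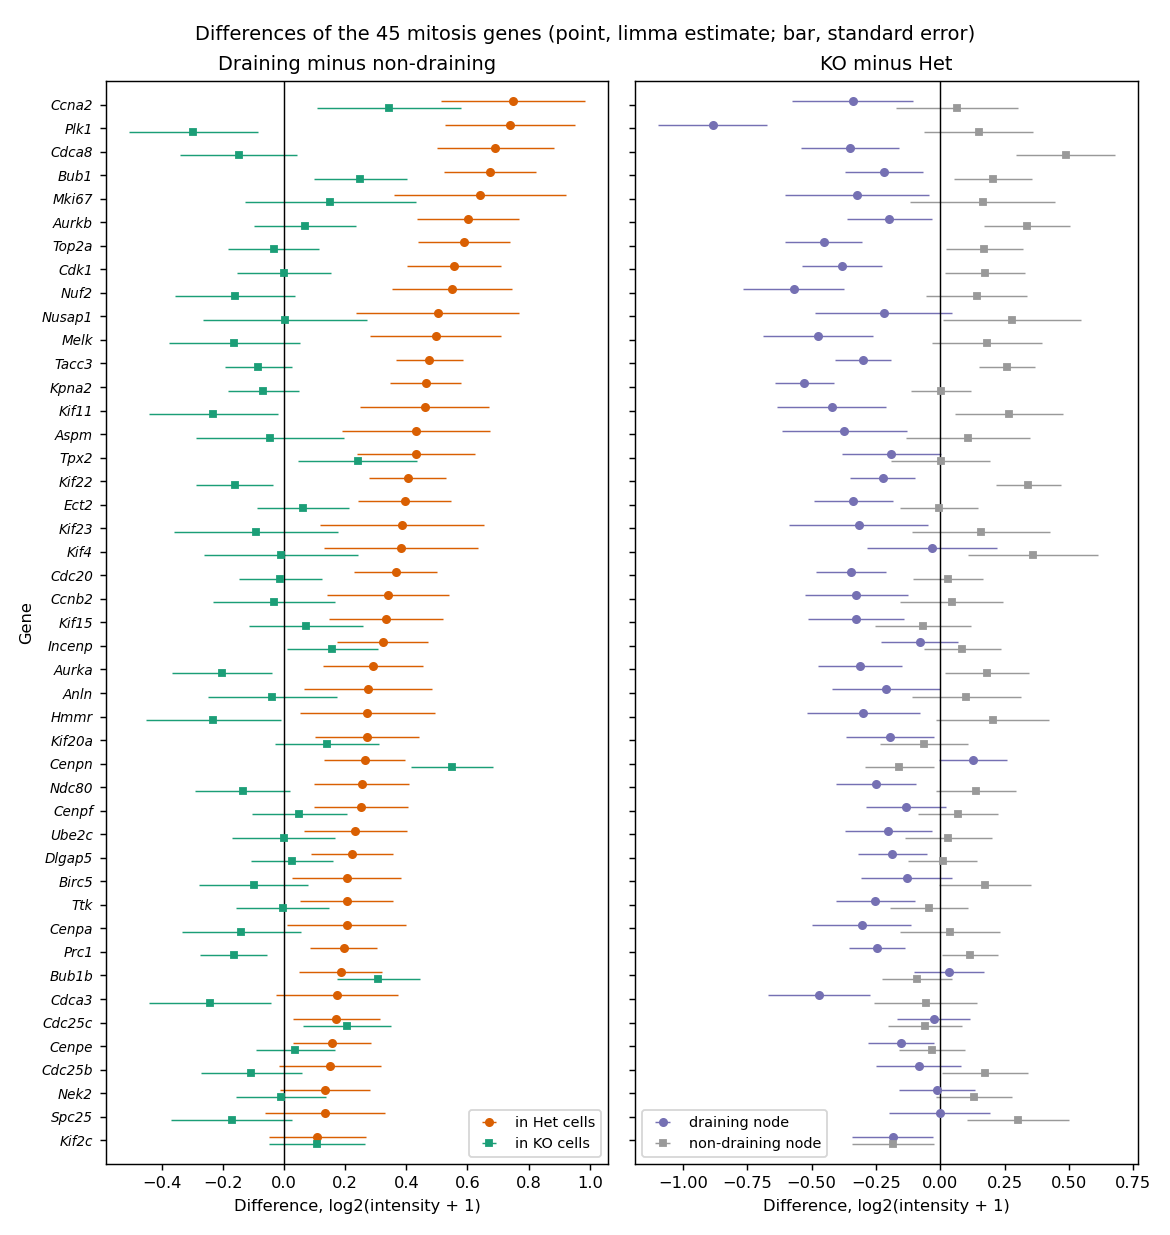
Log2 difference of each of the 45 mitosis genes (point) with its standard error (bar) between nodes within Het and KO cells (left) and between genotypes within each node (right), ordered by the node difference in Het cells. All 45 Het points lie above 0 on the left, and 43 of 45 draining points lie below 0 on the right.

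The members are described next by role. Differences are on the log2(intensity + 1) scale with the SE from limma, intensities are the linear values on arrays 1 to 4 of a group, and no difference named passed the adjusted test, the smallest adjusted p of a member in any comparison being 0.998. For 4 arrays against 4, the exact two-sided permutation test cannot go below p = 0.0286. It takes the arrays as unpaired, so it is not given between the nodes of Het cells, where the array numbers were taken to pair. The limma values given for that comparison take the arrays as unpaired too. Intensities of different genes come from different probes and are not set against each other.

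The switch into mitosis is made by CDK1 with its cyclins, and the CDC25 phosphatases remove the brake from it. Cdk1 read 239.8, 255, 231 and 191 in Het draining, 145, 153, 216 and 195 in KO draining, 170.1, 154, 143 and 153 in Het non-draining, and 208, 129, 171 and 202 in KO non-draining cells. All Het draining values were above all Het non-draining values (0.56 ± 0.15), while the KO draining and KO non-draining values were mixed (0.00 ± 0.15). Against Het draining cells, KO draining cells were lower by sign (-0.38 ± 0.15), with the 2 lowest arrays numbered 1 and 2. Ccna2, the gene of cyclin A2, was higher in the draining node of Het cells by 0.75 ± 0.24. Its groups were separated only narrowly, at 141.0 against 138.7. Het draining arrays 1 and 2 read 230 and 252, against 145 and 141 on arrays 3 and 4. Ccnb2, the gene of cyclin B2, differed by 0.34 ± 0.20 and Cdc25b and Cdc25c by 0.15 ± 0.17 and 0.17 ± 0.14. All 5 measured genes of the switch stood lower in KO than in Het draining cells, with differences from -0.38 to -0.03.

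Among the mitotic kinases, PLK1 acts from mitotic entry to cytokinesis, and its gene had the lowest KO minus Het value of the 45 members in the draining node. Plk1 read 201, 221, 129.9 and 114 in Het draining cells and 88.2, 85.3, 91.8 and 80.3 in KO draining cells. It read 139.5, 104, 78.7 and 72.9 in Het non-draining and 102, 122, 87.6 and 117 in KO non-draining cells. The 4 KO draining arrays lay close together and all below the Het draining arrays, 2 of which were far above the others. The KO minus Het difference was -0.88 ± 0.21 in the draining node (limma unadjusted p = 0.000682, adjusted p = 0.9997; exact permutation p = 0.0286) and 0.15 ± 0.21 in the non-draining node, and the interaction was -1.03 ± 0.30. In the non-draining node the sign turned within arrays 1 and 2 (-0.11). Between nodes Plk1 was 0.74 ± 0.21 higher in the draining node of Het cells with overlapping ranges, and differed by -0.30 ± 0.21 in KO cells. Aurka, the gene of the spindle pole kinase Aurora A, and Melk both had an interaction at an unadjusted p under 0.05 (-0.49 ± 0.23 and -0.66 ± 0.30). Nek2, a kinase gene of centrosome separation, had one of -0.14 ± 0.21.

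The spindle checkpoint genes did not follow 1 pattern. BUB1 and BUBR1, the product of Bub1b, sit on unattached kinetochores with TTK and hold back anaphase. Bub1 read 52.4, 40.6, 49.6 and 35.8 in Het draining, 34.4, 34.9, 34.7 and 48.4 in KO draining, 32.2, 20.7, 27.5 and 30.1 in Het non-draining, and 34.2, 27.5, 31.5 and 33.3 in KO non-draining cells. It was higher in the draining node without overlap in both genotypes, by 0.67 ± 0.15 in Het cells (limma unadjusted p = 0.000388, adjusted p = 1.0) and by 0.25 ± 0.15 in KO cells. The ranges in KO cells were separated only narrowly, at 34.4 against 34.2, and KO draining 4 stood far above the other 3. Bub1b read 64.4, 75.9, 56.8 and 67.0 in Het draining, 64.2, 83.4, 67.9 and 56.4 in KO draining, 59.3, 48.8, 60.9 and 62.8 in Het non-draining, and 51.0, 60.7, 44.3 and 62.6 in KO non-draining cells. Its groups overlapped throughout, and its node difference was 0.31 ± 0.14 in KO and 0.19 ± 0.14 in Het cells. Ttk was 0.21 ± 0.15 higher in the draining node of Het cells and 0.00 ± 0.15 apart in KO cells.

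The centromere and kinetochore genes held the member with the highest interaction value of the 45. CENP-N, the product of Cenpn, reads the centromeric nucleosome that contains CENP-A. Cenpn read 56.5, 68.4, 56.3 and 63.4 in Het draining, 71.7, 87.4, 55.2 and 56.7 in KO draining, 59.98, 45.8, 50.5 and 47.2 in Het non-draining, and 42.5, 46.1, 43.1 and 49.4 in KO non-draining cells. All KO draining arrays were above all KO non-draining arrays, by 0.55 ± 0.13 (limma unadjusted p = 0.000754, adjusted p = 1.0; exact permutation p = 0.0286), and in Het cells the difference was 0.26 ± 0.13. Its interaction was 0.28 ± 0.19, one of 3 above 0 with Bub1b and Cdc25c. Nuf2 and Ndc80, whose products form the arm of the NDC80 complex that grips the microtubule, had interactions of -0.71 ± 0.28 and -0.39 ± 0.22, and Spc25, of the same complex, one of -0.31 ± 0.28. Nuf2 differed by -0.57 ± 0.20 between KO and Het draining cells, but the groups overlapped, since 1 Het draining array read as low as the KO arrays. Cenpa, Cenpe and Cenpf had node differences of 0.20 ± 0.19, 0.16 ± 0.13 and 0.25 ± 0.15 in Het cells.

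The chromosomal passenger complex, made of Aurora B, INCENP, survivin and borealin, corrects faulty attachments of chromosomes. All 4 of its genes stood higher in the draining node of Het cells, lower in KO than in Het draining cells, and higher in KO than in Het non-draining cells. Cdca8, the gene of borealin, read 110.3, 142, 93.1 and 89.3 in Het draining, 72.9, 91.1, 85.4 and 86.1 in KO draining, 79.3, 55.5, 85.6 and 49.96 in Het non-draining, and 123, 71.8, 84.9 and 98.6 in KO non-draining cells. Its Het node difference was 0.69 ± 0.19 without overlap, its KO minus Het differences were -0.35 ± 0.19 and 0.49 ± 0.19 in the draining and non-draining node, and its interaction was -0.84 ± 0.27. Aurkb followed with a Het node difference of 0.60 ± 0.17 and an interaction of -0.53 ± 0.24. Incenp and Birc5, the gene of survivin, had Het node differences of 0.32 ± 0.15 and 0.21 ± 0.18.

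The kinesins are motors that slide spindle fibres apart or move chromosomes along them. Kif22, whose product pushes chromosome arms toward the spindle equator, read 68.8, 68.7, 72.4 and 56.3 in Het draining, 51.3, 52.6, 63.4 and 59.9 in KO draining, 52.4, 37.9, 55.8 and 55.6 in Het non-draining, and 62.9, 59.4, 59.1 and 73.2 in KO non-draining cells. The KO non-draining arrays were all above the Het non-draining arrays (0.34 ± 0.13, exact permutation p = 0.0286), and the Het draining arrays were above them too (0.40 ± 0.13). Het non-draining 2 was the lowest of the 16 arrays for this gene. The interaction of Kif22 was -0.57 ± 0.18. Kif11, the gene of the motor that keeps the spindle poles apart, did not overlap between KO and Het draining cells (-0.42 ± 0.21), although its Het mean rests in part on array 1, at 147 against 74.1 to 75.2 on the others. Kif15 and Kif4 had Het node differences of 0.33 ± 0.19 and 0.38 ± 0.25, and Kif2c, a microtubule depolymerase gene, one of 0.11 ± 0.16 and an interaction of 0.00 ± 0.22.

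The spindle assembly genes stood lower in KO than in Het draining cells for 7 of 7 members. Kpna2 encodes importin alpha, the nuclear import adaptor that also holds spindle factors such as TPX2 inactive. It read 369, 367, 326 and 284 in Het draining, 222, 201, 255 and 253 in KO draining, 295, 229, 237 and 215 in Het non-draining, and 262, 228, 240.4 and 243 in KO non-draining cells. The lowest Het draining array was above the highest KO draining array, and the other 3 groups overlapped one another. The difference between KO and Het was -0.53 ± 0.12 in the draining node (limma unadjusted p = 0.000302, adjusted p = 0.9997; exact permutation p = 0.0286) and 0.00 ± 0.12 in the non-draining node. Kpna2 had 3 probe sets of its name, and their draining differences were -0.53, -0.52 and -0.47. Near-identical copies of a gene can share probes, and which copy each probe set reads was not tested.

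Tacc3, whose product bridges spindle fibres together with clathrin, was the member whose genotypes did not overlap in either node, in opposite directions and narrowly. It read 148, 176, 153 and 137 in Het draining and 99.1, 134, 132 and 133 in KO draining cells, the highest KO array (134.4) being just below the lowest Het array (136.8). In the non-draining node it read 124, 105, 109 and 102 in Het and 142, 128, 124 and 131 in KO cells, and there the lowest KO array (124.284) was above the highest Het array (124.277) by less than any spread within a group. The differences were -0.30 ± 0.11 and 0.26 ± 0.11, and the interaction was -0.56 ± 0.16 (limma unadjusted p = 0.00231, adjusted p = 0.9997). Between nodes Tacc3 was higher in Het draining cells by 0.48 ± 0.11 and differed by -0.08 ± 0.11 in KO cells. Tpx2, Hmmr, Dlgap5, Aspm and Nusap1 had Het node differences between 0.22 and 0.50, with overlapping groups.

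**Figure D5:**
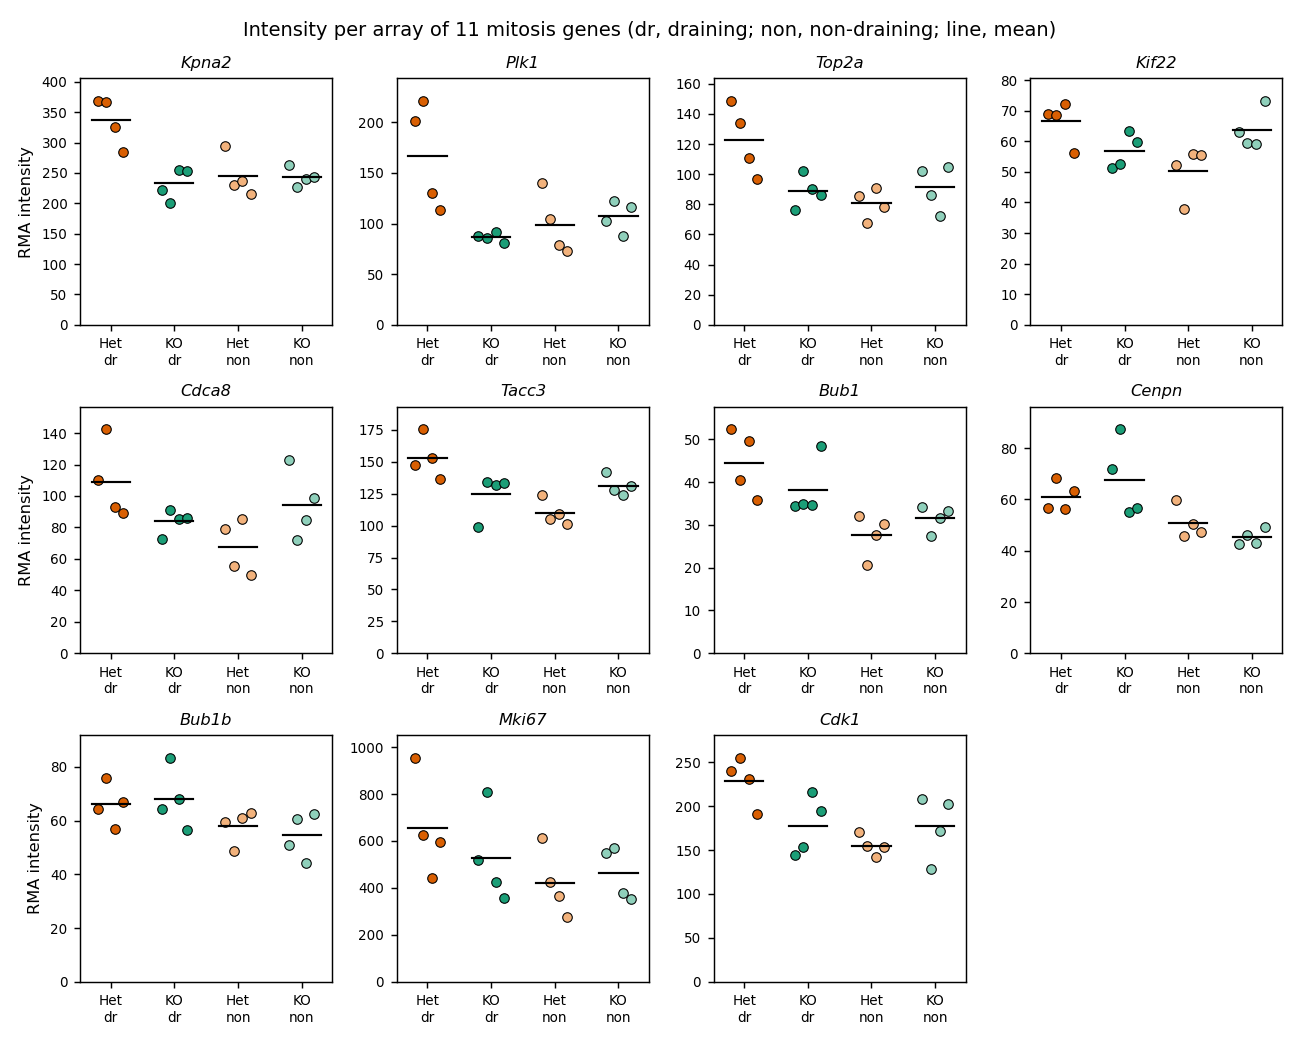
Intensity on each array (points, left to right arrays 1 to 4; vertical axis from 0) of 11 mitosis genes by group, with the group mean (line). Plk1 and Kpna2 are lower on all KO draining arrays than on all Het draining arrays, and Tacc3 is lower in KO cells of the draining and higher in KO cells of the non-draining node.

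The cytokinesis genes, which build and cut the bridge between daughter cells, stood lower in KO than in Het draining cells for 5 of 5 members. Prc1, the bundler of the central spindle, did not overlap (-0.25 ± 0.11), at 14.96 to 18.5 in Het and 13.7 to 14.9 in KO draining cells, below the intensity of the median gene. Ect2, the activator of the contractile ring, differed by -0.34 ± 0.15, and Kif20a, Kif23 and Anln by -0.19 ± 0.17, -0.32 ± 0.27 and -0.21 ± 0.21. In Het cells the 5 node differences lay between 0.20 and 0.39.

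Of the genes grouped here under the ubiquitin pathway of mitosis, Cdc20 encodes the activator of the anaphase-promoting complex and Ube2c the enzyme that hands it ubiquitin. Cdc20 was higher in the draining node of Het cells without overlap (0.37 ± 0.14) and differed by -0.35 ± 0.14 between KO and Het draining cells. Cdca3 differed by -0.47 ± 0.20 and Ube2c by -0.20 ± 0.17 in that comparison, with overlapping groups.

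Top2a and Mki67 act on the chromosomes themselves: topoisomerase II alpha untangles sister DNA, and Ki-67 coats condensed chromosomes and is the usual stain for cycling cells. Top2a read 149, 134, 111 and 97.0 in Het draining, 76.1, 102, 90.1 and 86.1 in KO draining, 85.7, 67.6, 91.0 and 77.97 in Het non-draining, and 102, 85.9, 71.9 and 105 in KO non-draining cells. Het draining cells were above Het non-draining cells without overlap (0.59 ± 0.15), and only Het draining 4 (97.0) and KO draining 2 (102) kept the KO and Het draining cells from separating (-0.45 ± 0.15). Mki67 read 955, 627, 441 and 594 in Het draining, 518, 809, 423 and 358 in KO draining, 611, 424, 367 and 278 in Het non-draining, and 549, 568, 380.1 and 352 in KO non-draining cells. Its spread within each group was wide, all 4 groups overlapped, and its differences had large errors: 0.64 ± 0.28 between nodes in Het cells, -0.33 ± 0.28 between genotypes in the draining node and 0.16 ± 0.28 in the non-draining node. The last of these became -0.014 without Het non-draining 4.

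Beyond the members, 75 other mitosis genes were measured, from a list made by name with earlier results of these data known. In Het cells 59 of them stood higher in the draining node and 16 lower (52.8% of all genes higher), with a median of 0.16. At an unadjusted p under 0.05, 17 were higher (1.93% of all genes), and none passed the adjusted test. In KO against Het draining cells 54 were lower and 21 higher (50.9% of all genes lower), with a median of -0.11. The 8 condensin genes, which compact chromosomes, had a Het node median of 0.30, led by Ncapg (0.58 ± 0.14) and Ncapg2 (0.33 ± 0.10). Espl1, the gene of separase, differed by 0.34 ± 0.12, the centromere gene Cenpm by 0.36 ± 0.10, and Spag5, of the spindle poles, by 0.56 ± 0.17. The 13 core subunits of the anaphase-promoting complex, which are present through the whole cycle, had a Het node median of 0.13, the 11 genes of G2 and mitosis transcription control 0.08, and the 9 genes of CDK inhibitors and other brakes -0.01. In KO against Het draining cells 4 of the 9 brakes were higher and 5 lower, with a median of -0.0003. The 2 of smallest p, Cdkn1c and Btg2, were higher in KO cells, by 0.29 ± 0.10 and 0.31 ± 0.13. Both had an unadjusted p under 0.05 and an adjusted p of 0.9997 in limma.

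The 27 DNA replication genes, which act in the phase before, gave values of the same sign as the members in some comparisons but not in all. In the draining node of Het cells 26 were higher (median 0.27, 52.8% of all genes higher). Of these, 9 were at an unadjusted p under 0.05 (1.93% of all genes). Against Het draining cells, 22 were lower in KO draining cells (median -0.12, 50.9% of all genes lower). Against Het non-draining cells, 25 were higher in KO non-draining cells (median 0.16, 51.9% of all genes higher). The genotype difference averaged over both nodes went the other way from the members. It was above 0 for 20 and below 0 for 7 (median 0.03, 49.2% of all genes lower). Between nodes in KO cells 17 were higher and 10 lower in the draining node (median 0.007, 50.7% of all genes higher). None passed the adjusted test. Prim1, the primase gene, had a Het node difference of 0.72 ± 0.19, Rrm2, of nucleotide supply, 0.70 ± 0.20, and Mcm7, of the replicative helicase, was lower by sign in KO draining cells (-0.39 ± 0.14).

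After each group's mean was taken out, the members still varied together from array to array. Over the 16 arrays the mean correlation between 2 members was 0.23, against 0.01 between genes at large, and 743 of 990 pairs (75.1%) were above 0. Of the members, 21 correlated above 0.5 with the mean of the others, led by Tpx2 (0.85), Aurkb (0.85), Kif23 (0.82), Aspm (0.80) and Top2a (0.80). Cdk1 reached 0.41, Bub1 0.22 and Melk 0.00, and Cdc25b, Cenpe, Cenpa and Prc1 lay below 0, between -0.12 and -0.01. The points share arrays, and the number pairs and the T cell markers vary over them too, so these values are a description. Of 19893 other genes, those most like the members' mean over the 16 arrays by this measure were Tk1 (0.91), Srprb (0.88), Ldha (0.88), Mir125b-2 (0.86), Btnl1 (0.86), Pclaf (0.86), Ncaph (0.85), Rfng (0.85), Snord15b (0.85) and D830025C05Rik (0.84).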

How the data were processed

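RNA from 16 samples of sorted cDC1, 4 per group, was measured on Affymetrix Mouse Gene 1.0 ST arrays. The values are intensity readings on a linear scale, as deposited, from 3.327 to 16300.089 over 35556 probe sets, after the authors' normalization with RMA, per the submitters' processing notes. Which program ran it is not given in the sources used here. This method gives all arrays a common distribution and draws dim probe sets together, which shrinks the differences of dim genes and hides any shift common to all genes. Array medians lay between 38.6 and 40.8.

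The platform annotation gives 1 gene symbol for 21789 probe sets, several for 1621 and none for 12146. The brightest probe set stood for a gene, giving 19938 genes. Values were tested as log2(intensity + 1), two-sided, with limma 3.58.1 (R 4.3.3), fitting all 4 groups at once, with Benjamini-Hochberg adjustment over all genes and a threshold of 0.05. Errors after ± are SEs of differences or SDs of means. Single genes were also compared by an exact permutation of 4 against 4 arrays. Tested on simulated data with a set of genes changed by 0.5 or 1 (log2), the fit recovered 46.5% and 88% of them for KO against Het draining cells. For the other simple comparisons it recovered 36% to 41% at 0.5 and 91.5% to 93.5% at 1. The simulated noise was independent between genes, whereas genes on these arrays varied together, so these shares may not hold for the real data. Figures were drawn with matplotlib 3.10.9.

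The members, the lists and the tests were chosen with earlier results of these data known. Members given with array values were the 3 of smallest p in each of the 4 simple comparisons and in the interaction, plus Mki67, Cdk1, Top2a and Plk1. From each further list up to 2 genes of smallest p were named, and the 10 genes most like the members' mean. Alternatives covered the pseudocount, probe set choice, a filter on dim genes, normalization, the limma prior, weights, blocks, subsets and leaving out each array.

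Same-numbered arrays were checked for pairing by the correlation of their deviations from the group means over all genes. For Het draining against Het non-draining cells all 4 correlations were over 0.1 (0.23, 0.20, 0.31 and 0.23), so the numbers were taken to pair these groups, from the data alone. For the other comparisons at least 1 pair fell short. Between nodes in KO cells the correlations were -0.01, 0.45, 0.20 and 0.48. Arrays of the same number pair (1 and 2, or 3 and 4) in different groups had a median correlation of 0.23. These values therefore cannot tell pairing by number from the split between the number pairs.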

Additional observations from a re-analysis of the deposited data

Results flagged for a closer look

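Among 184 groups of 4 arrays, 1 for each of the 45 measured members and for their mean in each group, 15 held an array far from the other 3, where chance flags about 1 in 20 such groups. High values on Het draining 1 were 146.6 for Kif11, 37.5 for Hmmr and 88.7 for Dlgap5, and on Het draining 2 they were 79.4 for Incenp and 39.0 for Kif4. KO draining 2, the array least like the others, stood high for Ccna2 (238.7), Ttk (27.1), Incenp (91.3) and Ube2c (55.1). In the same group KO draining 4 was high for Bub1 (48.4) and KO draining 1 low for Tacc3 (99.1). In the non-draining node, Het array 2 was high for Anln (42.2), KO array 1 for Cdc25b (76.0), and KO array 3 for Nek2 (32.8) and Prc1 (19.0).

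Tacc3 was lower on every KO array than on every Het array in the draining node and higher in the non-draining node, with a difference between the 2 genotype effects of -0.56 (log2), which did not pass in limma (adjusted p = 0.9997).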

How the results depend on the processing

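No member passed the adjusted test under any alternative run. The median member difference between KO and Het draining cells moved to -0.43 with arrays 1 and 2 alone and to -0.087 with arrays 3 and 4 alone, and that of the interaction to -0.54 with arrays 1 and 2. Leaving out 1 array gave medians of -0.35 to -0.18 for KO against Het in the draining and 0.05 to 0.18 in the non-draining node, 0.25 to 0.42 between nodes in Het and -0.09 to 0.04 in KO cells, -0.45 to -0.29 for the interaction, and -0.12 to -0.03 and 0.13 to 0.21 for the means over nodes and genotypes. The medians moved by less than the spread between arrays under the other alternatives, the 2 other scalings included, but with arrays 3 and 4 alone those near 0 turned sign, to 0.011 for the genotype averaged over nodes and 0.046 between nodes in KO cells.

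A fit blocked on replicate number gave 23 higher members between nodes in Het cells at unadjusted p under 0.05 (2.61% of all genes). There the numbers were taken to pair, and there was no call at an adjusted p. Where they were not taken to pair, this fit gave 14 lower members between KO and Het draining cells (2.38%) and 14 in the interaction (1.85%). It gave 3 lower members for the genotype averaged over nodes (2.54%) and 14 higher members for the node averaged over genotypes (2.45%). In the other 2 comparisons the counts were the same as without the block, 3 (1.93%) and 2 (1.62%). Of the 24 same-numbered pairs of groups, 18 correlated over 0.1, and 9 of 16 arrays correlated best with their own number. Arrays of the same number pair (1 and 2, or 3 and 4) had a median correlation of 0.23, and of different pairs -0.22.

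Single genes near 0 turned sign. Between nodes in KO cells, Mki67 was -0.0009 with array weights and -0.077 to 0.31 without 1 array. Cdk1 was -0.0021 with array medians centred, -0.14 within arrays 1 and 2 and -0.14 to 0.091 without 1 array. Top2a was 0.10 with the mean of all probe sets, 0.020 within arrays 3 and 4 and -0.14 to 0.037 without 1 array. Between genotypes in the non-draining node, Plk1 was -0.11 within arrays 1 and 2 and Mki67 -0.014 to 0.36 without 1 array. The causes were not tested. Signal over background limits the 16 members below the median gene, and the filter on dim genes left 29.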
